A study of Mus musculus with 18 samples.

Results

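Tubulin isotypes were followed through the series, 10 genes chosen by symbol: the beta-tubulins Tubb2a, Tubb2b, Tubb3, Tubb4a, Tubb4b, Tubb5 and Tubb6 and the alpha-tubulins Tuba1a, Tuba1b and Tuba4a. All 10 were found among the 35734 genes of the fibroblast comparison. All 10 were also placed as windows (the gene with 2 kb on both sides) in both multiome libraries, among 21887 gene windows. The family was picked because Tubb3, a neuronal marker, had been seen to be lower in fibroblasts given Ikzf1 and Ikzf4. The fibroblast values below are therefore a description and test nothing.

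Microtubules are hollow polymers of alpha- and beta-tubulin dimers. Vertebrates carry several genes for each subunit, called isotypes, whose proteins are nearly alike except in their acidic tails. Tubb3 is largely restricted to neurons and is used to mark them, Tubb2a, Tubb2b and Tubb4a are abundant in the nervous system, and Tuba1a is the main alpha-tubulin of developing neurons. Tubb5, Tubb4b, Tubb6 and Tuba1b are made by many cell types, dividing cells included, and Tuba4a is found in mature tissues.

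The fibroblasts were mouse embryonic fibroblasts (line R26-M2rtTA, C57BL/6), which carry the doxycycline-controlled activator and were infected with lentiviral vectors. Every culture received Brn2 and Myt1l, neuronal transcription factors, with doxycycline for 48 h. The groups differed in Ikzf1 and Ikzf4, zinc-finger factors of the Ikaros family, which only the second group received (3 RNA-seq libraries per group). Values per library were not analysed here for single genes, because no table at hand pairs the deposited transcripts with genes. In the authors' deposited table the cells had high mean normalised counts of fibroblast genes, such as 120151 for Col1a1. Of 8 neuronal markers in the authors' deposited table, some were well counted, such as Syt1 at a mean of 7599.8 and Map2 at 4799, and others were low, such as Snap25 at 5.42 and Rbfox3 at 0.194.

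The multiome experiment gave 1 control library (mCherry, retina, mouse line GLAST-CRE ERT2 ; RosaYFP, C57BL/6, labelled as Muller glia) and 1 library labelled Ikzf1/4, whose other labels only repeat its title. In this line a Cre driven from the Glast gene, active in glia, is switched on by tamoxifen. Apart from the labels above, the descriptions of both libraries, Ikzf1/4 included, give tamoxifen and 14 days. The run names in the headers carry 48 h, and no age of the animals is stated. After the filters, 1876 control cells (median 6230 fragments) and 693 Ikzf1/4 cells (median 10962) remained, and 3 cell barcodes occurred in both libraries. Cells of other retinal types were plentiful despite the label: 34.0% of control and 19.5% of Ikzf1/4 cells fell in clusters with open Muller glia markers. With 1 library per group no test between them is possible, and the intervals below, all at 95%, cover counting error only. They measure open chromatin, which is not the amount of mRNA.

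Sequences upstream of 4 members are shown because fragment ends were densest there, as described below: Tubb3 and Tubb4a for their contrast between cell classes, Tuba1a as the third member lower in fibroblasts, and Tubb4b as the most open and most even one. Each run is the 250 bases before the annotated start, written 5′ to 3′ on the gene's strand, from RefSeq (GRCm38.p6). Capitals mark 3 motifs. The first is TATAA, the core of the TATA box, on the strand shown. The second is CCAAT, the core of the box bound by NF-Y, on either strand. The third, also on either strand, is GGGAA, the core letters recognised by Ikaros-family proteins.
Tubb3, chr8:123411303-123411552, plus strand: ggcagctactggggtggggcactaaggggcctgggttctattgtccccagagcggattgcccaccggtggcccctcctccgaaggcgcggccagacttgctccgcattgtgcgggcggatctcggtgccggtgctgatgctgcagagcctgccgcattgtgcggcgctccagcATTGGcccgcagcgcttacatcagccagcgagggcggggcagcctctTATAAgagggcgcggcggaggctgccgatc
Tubb4a, chr17:57087601-57087850, minus strand: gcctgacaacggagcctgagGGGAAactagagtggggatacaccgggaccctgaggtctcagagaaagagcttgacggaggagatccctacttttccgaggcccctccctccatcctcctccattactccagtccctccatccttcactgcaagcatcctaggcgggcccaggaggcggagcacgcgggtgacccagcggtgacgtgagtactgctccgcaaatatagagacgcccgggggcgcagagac
Tuba1a, chr15:98953502-98953751, minus strand: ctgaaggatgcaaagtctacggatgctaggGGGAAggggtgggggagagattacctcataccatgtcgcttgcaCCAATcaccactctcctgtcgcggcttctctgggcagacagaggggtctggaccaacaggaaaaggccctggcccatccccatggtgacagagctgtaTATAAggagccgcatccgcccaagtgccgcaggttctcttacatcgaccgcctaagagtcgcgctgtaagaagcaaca
Tubb4b, chr2:25224703-25224952, minus strand: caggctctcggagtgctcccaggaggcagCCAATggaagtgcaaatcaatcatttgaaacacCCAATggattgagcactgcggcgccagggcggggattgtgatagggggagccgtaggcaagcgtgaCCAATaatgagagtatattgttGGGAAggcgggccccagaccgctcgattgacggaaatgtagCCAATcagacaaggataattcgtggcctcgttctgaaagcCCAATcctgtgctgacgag

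RefSeq gave such a sequence for 8 members, not Tubb2b and Tubb6. The Tubb3 sequence had TATAA 30 bases before the start and 1 CCAAT box on the reverse strand, and no GGGAA. Tubb2a had TATAA at almost the same place, 29 bases before its start, whereas the TATAA of Tuba1a lay 78 bases upstream of the RefSeq start. A TATAA beginning 40 to 20 bases before the start was held by 2 of the 8 members and by 3.52% of 32851 mouse promoter sequences of the same length. Tubb4b stood apart in another way, with 5 CCAAT boxes, all on its own strand. CCAAT on either strand was found in 4 of the 8 members and in 33.8% of all such sequences. GGGAA was found in 5 of the 8 members and in 56.2% of all. The E-box letters CANNTG, which read alike on both strands, were in 6 of the 8 and in 66.2% of all. AAAGTT, the core letters of Myt1-type factors on either strand, was in none of the 8, against 12.4% of all. These matches are letters in a window, not sites of binding.

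In fibroblasts, 3 tubulins were lower with Ikzf1 and Ikzf4 in the authors' deposited table and none was higher. Among the 3, Tubb4a had the largest difference, followed by Tubb3 and Tuba1a, and the other 7 did not pass the authors' threshold (DESeq2 adjusted p under 0.05). That threshold was passed by 30.6% of all genes with an adjusted p, by 15.4% in the lower direction, so the count of 3 of 10 by itself does not set the family apart.

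Among the beta-tubulins, Tubb4a, the isotype of myelinating glia and neurons, was at a log2 fold change of -1.46 (SE 0.18) in the authors' deposited table. This is a fold of 0.363, at a mean normalised count of 257. Only 32 of 16757 genes had a lower log2 fold change there, and 0.913% of all genes were called with one under -1. Tubb3 was at -0.42 (SE 0.10) in that authors' deposited table, a fold of 0.746, at a mean of 2443. A lower value was held by 6.67% of genes, so the drop of the named neuronal marker was moderate beside that of Tubb4a.

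The remaining beta-tubulins sat near no change in the authors' deposited table. Tubb2a was at a log2 fold change of -0.11 (SE 0.07), Tubb6 at -0.03 (SE 0.07), Tubb5 at -0.04 (SE 0.05) and Tubb4b at 0.03 (SE 0.05). Tubb2b, a neuron-rich isotype like Tubb2a, lay almost exactly at zero, with a log2 fold change of 0.00018 (SE 0.05) at a mean normalised count of 7211. The brain-enriched isotypes thus did not move as a block: Tubb4a and Tubb3 were called lower and Tubb2a and Tubb2b were not.

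Of the alpha-tubulins, Tuba1a was at -0.20 (SE 0.05) in the authors' deposited table, a fold of 0.869, at a mean normalised count of 34090. Tuba1b was at -0.09 (SE 0.04) and was not called. Tuba4a was the only member above 0.1, at 0.21 (SE 0.11), and it was not called either. Of these called members, Tubb3 and Tuba1a had means of at least 1000, where 40.5% of all genes were called and the median absolute log2 fold change was 0.12. The members' median log2 fold change was -0.07, against -0.0004 for all genes. These log2 values may have been shrunk by the authors' software, since standard errors in the table are small for the least counted genes.

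**Figure D1:**
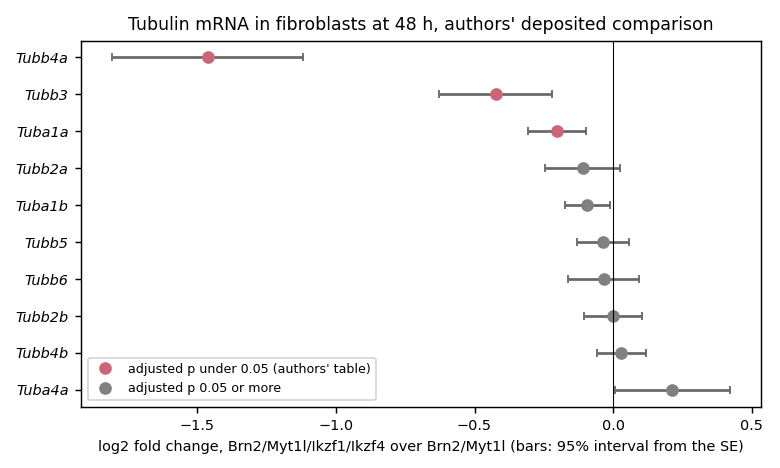
Log2 fold changes of the 10 tubulins in fibroblasts, with against without Ikzf1 and Ikzf4, from the authors' deposited table (x axis; points are the authors' estimates, bars 95% intervals from the authors' standard errors, 1 gene per line). Tubb4a lies at -1.46 and Tubb3 at -0.42, while 7 genes, in grey, did not pass an adjusted p of 0.05.

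Other genes of the tubulin machinery were read against the 30.6% of all genes called in the authors' deposited table, 15.3% of all genes being higher and 15.4% lower. The shares called in the lists for folding, modification and microtubule binding were near that background. Most folding and microtubule-binding genes had a mean normalised count of at least 1000. Among all genes so highly counted, 40.5% were called, with 20.8% of them lower. Of 10 other tubulin genes, 6 had an adjusted p and 1 was called, Tuba1c, an alpha-tubulin of many tissues, higher at a log2 fold change of 0.20 (SE 0.08). Of 22 genes for tubulin folding and dosage, 5 were called lower and 1 higher. The lower ones included Arl2, a small GTPase that works with the tubulin cofactors, at -0.35 (SE 0.08). They also included Tcp1 and Cct3, subunits of the CCT chaperonin that folds tubulin, both at -0.15 (SE 0.04), and Tbca, a beta-tubulin cofactor, at -0.20 (SE 0.06).

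Of 21 tubulin-modifying enzymes with an adjusted p, 3 were called higher and 4 lower in the authors' deposited table. Hdac6, which removes acetyl groups from alpha-tubulin, was higher at a log2 fold change of 0.42 (SE 0.06). The other 3 with the smallest p were Ttll12 at -0.33 (SE 0.06), Agbl3 at 0.48 (SE 0.13) and Agbl2 at -0.67 (SE 0.19). The Agbl proteins trim tubulin tails.

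Of 28 microtubule-binding proteins, 6 were called higher and 4 lower in the authors' deposited table. Higher members included Map1a at a log2 fold change of 0.30 (SE 0.05), Map4 at 0.24 (SE 0.05) and Stmn4, a tubulin-binding stathmin of neurons, at 0.94 (SE 0.20) from a mean normalised count of only 87.1. Dclk1, a doublecortin-like kinase, was lower at -0.46 (SE 0.06). The lists were drawn up by function, and their median log2 fold changes lay at 0.0019, -0.06, 0.10 and 0.06, in the order given. Fibroblast markers were called lower for 6 of 8 genes with a median of -0.46, and of 7 neuronal markers with an adjusted p, 1 was called, Syt1, lower at -0.47 (SE 0.06). The part of these shifts in the tubulin values was not tested. In bulk RNA, fewer cells of a type and less RNA per cell cannot be told apart.

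In retinal nuclei, the members' fragments were densest near their starts where a start is known, though for Tubb3 most lay elsewhere in the window. Within 500 bp of the start, which made up 6.92% of the Tubb3 window, lay 41.1% of its control fragments and 44.2% of its Ikzf1/4 fragments. For Tubb4b the start held 92.2% and 92.3% on 15.3% of the length. For all 8 members with a known start and in both libraries, the 200 bp just upstream held the most fragment ends of any such bin within 2 kb.

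**Figure D2:**
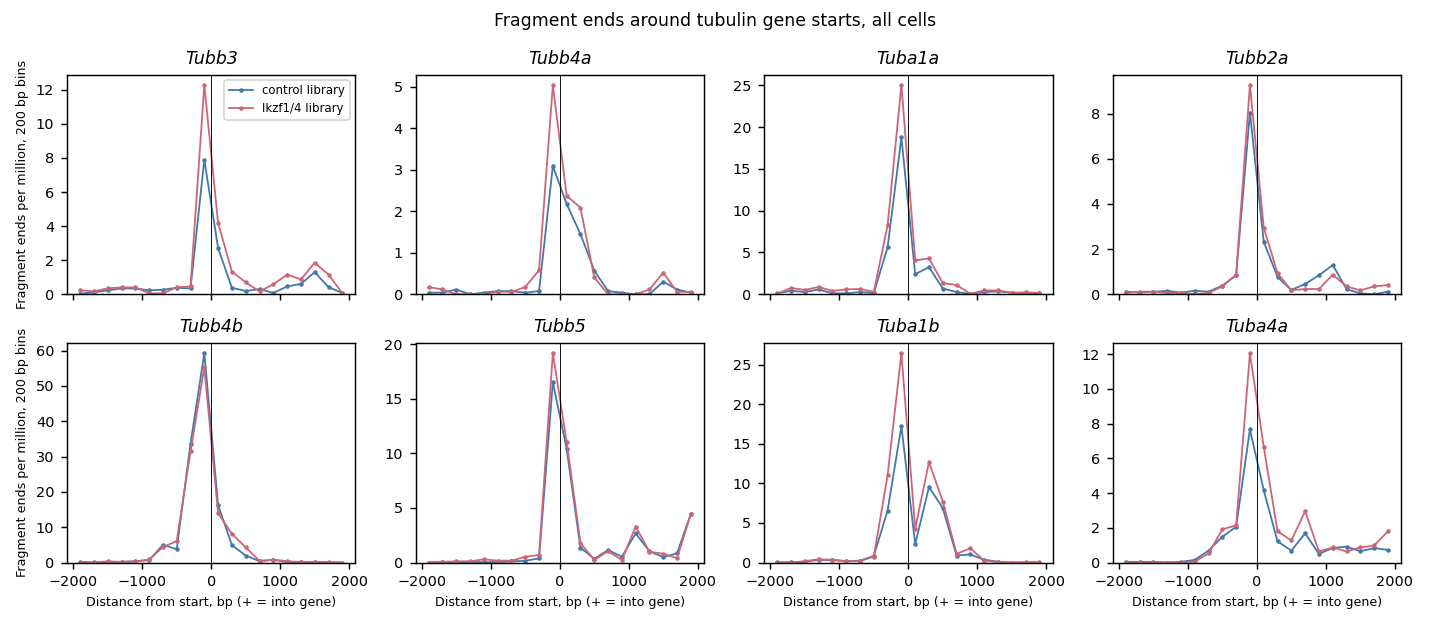
Fragment ends around the starts of 8 tubulin genes (x axis: distance from the RefSeq start in bp, positive into the gene; y axis: ends, scaled to the library's total, in bins of 200 bp; all cells, 1 line per library). The highest bin lies just upstream of the start in every panel, and the y axes differ between panels.

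Per kb of window, Tubb4b was the most open member, at 19.8 CPM (fragments in the window, scaled to the cells' total) per kb in the control. Tuba1b followed at 6.87, Tubb5 at 5.57 and Tuba1a at 4.76. Below them came Tuba4a at 2.51, Tubb2a at 2.32 and Tubb3 at 1.98. The lowest values were those of Tubb2b at 1.08, Tubb4a at 1.06 and Tubb6 at 0.886. Per kb, the broadly made isotypes thus took the first 3 places, although Tubb6 came last. This order depended in part on the division by window length. In CPM of the whole control window the first 3 were the same. Tubb6, at 14.19 CPM, then lay above Tubb4a at 12.21 and Tubb2b at 7.94. Within 500 bp of the start, Tuba1a at 30.830 CPM lay just above Tubb5 at 28.999 in the control. Most windows also hold all or part of a neighbouring gene: Mc1r for Tubb3, Dennd1c for Tubb4a, Bphl for Tubb2a, Flot1 for Tubb5 and Fam166a for Tubb4b. The Tuba4a window (chromosome 1, 75212972 to 75223261) holds part of Stk16 and A630095N17Rik. Long non-coding genes overlap those of Tuba1a, Tuba1b and Tubb2b, and none overlaps that of Tubb6. Fragments in the coding exons of near-identical tubulins and their pseudogenes may be placed at the wrong copy.

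Cells were sorted into classes by clusters that had been made without the bins at these genes. The classes were Muller glia-like (637 control and 135 Ikzf1/4 cells), rod-like (93 and 138), cone-like (257 and 136), bipolar-like (645 and 244), amacrine-like (75 and 5) and microglia-like (117 and 18). Markers at 1.5 times the other cells or more numbered 10 of 10 in both Muller glia-like clusters, the rod-like and the cone-like cluster. They numbered 6 of 8 in the amacrine-like and the microglia-like cluster and 5, 7 and 3 of 10 in the bipolar-like clusters 1, 4 and 5. Another 52 and 17 cells stayed unnamed.

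Tubb3 was more open in each neuron-like class of the control than in Muller glia-like cells, and Tubb4a in bipolar- and amacrine-like cells but not separably in rod- and cone-like ones. Tubb2a and Tubb2b, also abundant in the nervous system, were not separated with the neuron-like classes pooled. In the control library, rod-, cone-, bipolar- and amacrine-like cells together had a higher CPM than Muller glia-like cells, with an interval above 1, for 6 of 10 members. They were Tubb3, Tubb4a, Tuba4a, Tubb5, Tuba1b and Tuba1a. The same held for 49.2% of all gene windows, so the count itself is near the background, and the ratios differed widely beside the median window's 1.22. Tubb4a had the highest, 7.25 (3.70 to 16.2), followed by Tuba4a at 3.17 (2.28 to 4.51) and Tubb3 at 2.99 (2.22 to 4.11). Tubb5 was at 1.72 (1.40 to 2.12), Tuba1b at 1.43 (1.19 to 1.74) and Tuba1a at 1.35 (1.10 to 1.68). The intervals of Tubb4b, Tubb2a, Tubb6 and Tubb2b included 1.

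Tubb3 held 12.97 CPM in Muller glia-like cells of the control (interval 9.66 to 17.1), 31.5 in bipolar-like (26.3 to 37.5), 52.7 in cone-like (43.5 to 63.3) and 54.8 in rod-like cells (37.0 to 78.3). Amacrine-like cells were at 25.3 (14.8 to 40.6) and microglia-like cells at 24.4 (16.2 to 35.3). Both photoreceptor-like classes lay highest, with overlapping intervals, and the wide rod-like interval also just reached those of bipolar- and amacrine-like cells. Muller glia-like cells lay lowest, and the ratio of each other named class to them had an interval above 1, the lowest ratios being 1.95 for amacrine-like (1.06 to 3.44) and 1.88 for microglia-like cells (1.14 to 3.04). In the Ikzf1/4 library the values were 16.4 (10.4 to 24.5) in Muller glia-like, 44.1 (36.8 to 52.4) in bipolar-like, 62.7 (51.6 to 75.5) in cone-like and 63.3 (50.9 to 77.9) in rod-like cells, in the same order. At the start alone the contrast widened, from 10 fragments or 2.54 CPM in control Muller glia-like cells to 22.7 in cone-like and 34.7 in rod-like cells.

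Tubb4a followed the neuron-like classes of the inner retina instead. Its control window was at 24.4 CPM in bipolar-like cells (19.9 to 29.7) and 22.4 in amacrine-like cells (12.5 to 36.9). It was at 3.70 in cone-like (1.60 to 7.29), 1.83 in rod-like (0.0463 to 10.2) and 2.29 in Muller glia-like cells (1.05 to 4.35). Bipolar-like cells were thus several times above photoreceptor- and Muller glia-like ones, with no overlap of intervals. The start showed it more sharply, with 77 fragments (18.8 CPM) in bipolar-like cells and 2 each in cone-like, Muller glia-like and microglia-like cells of the control. In the whole window microglia-like cells held 23 fragments (20.1 CPM), so most of these lay away from the Tubb4a start. In the Ikzf1/4 library bipolar-like cells again had the highest start value of the classes with over 100 cells, 77 fragments (26.1 CPM), against 0 in rod-like cells.

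Tuba4a resembled Tubb3. It was at 10.7 CPM in control Muller glia-like cells (7.70 to 14.4), 29.8 in bipolar-like (24.8 to 35.6), 38.8 in cone-like (31.0 to 48.1) and 51.2 in rod-like cells (34.0 to 74.0). Over 16 points, the clusters of each library with at least 50 cells, its log2(CPM + 1) correlated with that of Tubb3 at r = 0.91, rank 28 of 14712 windows. Tubb5 followed at 0.87, Tuba1b at 0.70 and Tuba1a at 0.66, while Tubb4a was at 0.13. Windows among the most like Tubb3 were those of Pitpnm1 (0.96), Vtn, Ube3c and Dnajc5 (0.94 each). The points share libraries and depth, so these values only describe likeness.

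Tubb4b was the most even member across named classes: in the control it ran from 96.8 CPM in microglia-like cells (79.7 to 117) to 183 in rod-like cells (149 to 222), with 126 in Muller glia-like cells (116 to 138). Tubb6, Tubb2b and Tubb2a, in contrast, were most open in microglia-like cells of the control. Tubb6 was at 44.5 CPM there in the control (33.1 to 58.5), against 10.4 in Muller glia-like (7.48 to 14.1) and 12.5 in cone-like cells (8.23 to 18.2). In amacrine-like cells Tubb6 had 0 fragments in both libraries, and 3 fragments would have been 4.47 CPM in the control. Tubb2b was at 23.6 in microglia-like cells (15.5 to 34.3), and at 4.89 in bipolar-like cells (2.99 to 7.55). Tubb2a was at 33.2 in microglia-like cells (23.5 to 45.5), and at 16.03 in Muller glia-like cells (12.3 to 20.5).

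**Figure D3:**
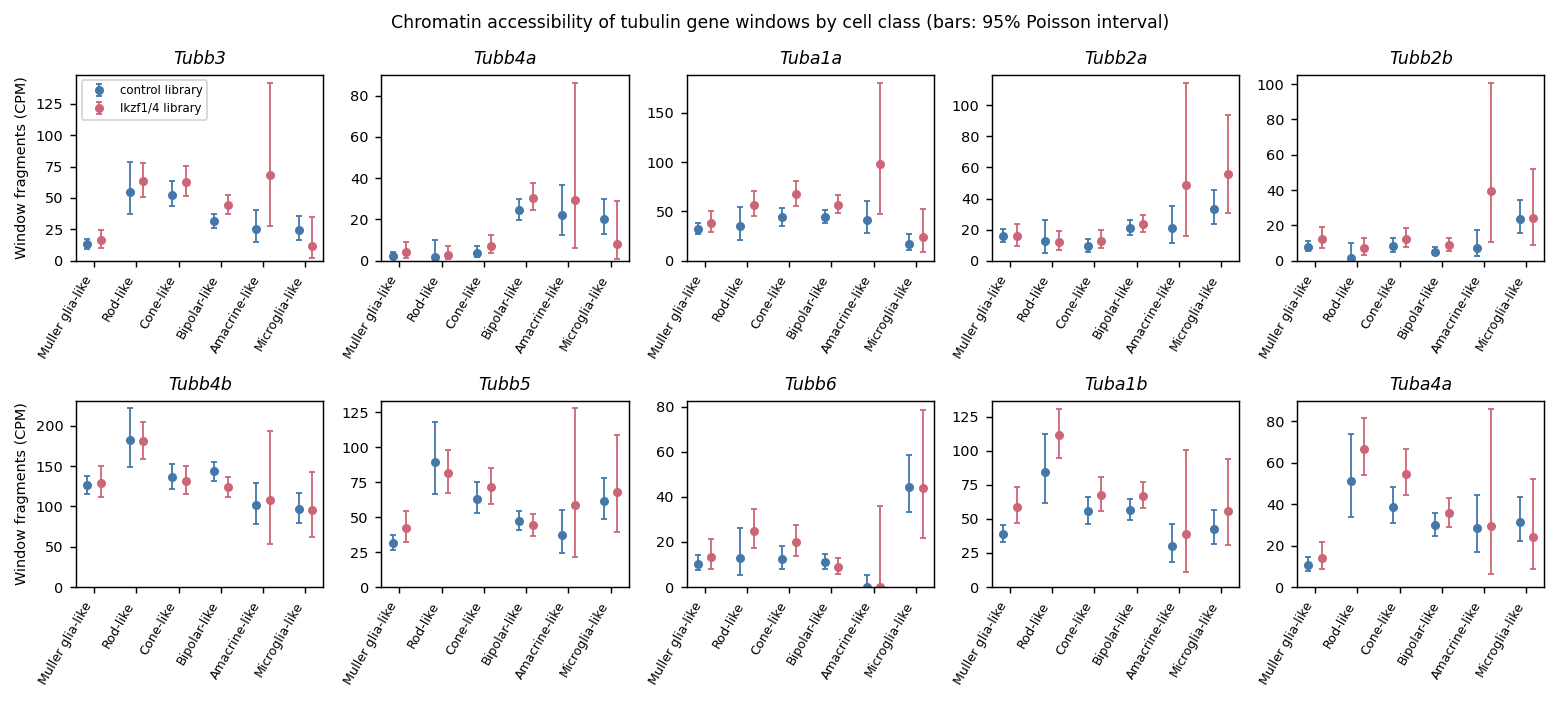
CPM (y axis) in the windows of the 10 tubulin genes by cell class (x axis), with 1 point per library and 95% Poisson intervals. Leaving aside the 5 amacrine-like cells of the Ikzf1/4 library, Tubb3 and Tuba4a are highest in rod- and cone-like cells, Tubb4a in bipolar-, amacrine- and, in the control, microglia-like cells, and Tubb4b lies between 95.9 and 183 CPM in the named classes.

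Between the libraries, 4 members stood high over all cells: Tubb3, Tuba4a, Tuba1b and Tuba1a were more open in the Ikzf1/4 library. Tubb3 went from 28.6 CPM in the control (375 fragments) to 43.8 in the Ikzf1/4 library (378 fragments), a ratio of 1.53 (1.32 to 1.77). Tuba4a had a ratio of 1.52 (1.31 to 1.78), from 25.9 to 39.4 CPM. Tuba1b went from 47.8 to 69.0 CPM and Tuba1a from 36.4 to 52.3, both with a ratio of 1.44. Tubb5, at 1.16 (1.02 to 1.31), was the fifth member with an interval above 1, against 35.9% of all gene windows. The Tubb5 interval included 1 at a minimum of 10000 fragments (0.96 to 1.37), scaled to gene windows (0.96 to 1.23), at the start (0.99 to 1.35) and divided by the median window (0.95 to 1.22). A ratio over 1.25 was reached by 5 members, Tubb2b among them, and by 15.0% of windows, and an interval below 1 by no member and 13.2% of windows. Divided by the median window, Tubb4b was at 0.92, with an interval below 1 (0.852 to 0.993). Tubb2b is not among those windows, as it held under 200 fragments.

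The median window had a ratio of 1.07 and the central 95% of 14297 windows lay between 0.673 and 1.47. Tubb3 exceeded 98.6% of windows and Tuba4a 98.4%, and Tuba1b and Tuba1a each about 97.0%. The other ratios were 1.30 for Tubb2b (0.97 to 1.74), 1.14 for Tubb4a (0.89 to 1.45), 1.07 for Tubb6 (0.85 to 1.34), 1.03 for Tubb2a (0.83 to 1.26) and 0.99 for Tubb4b (0.91 to 1.07). Their intervals included 1. The libraries also differed in the enrichment of fragment ends at gene starts, with a median of 27.3 in Ikzf1/4 and 23.5 in control cells, whose part in the ratios was not tested.

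**Figure D4:**
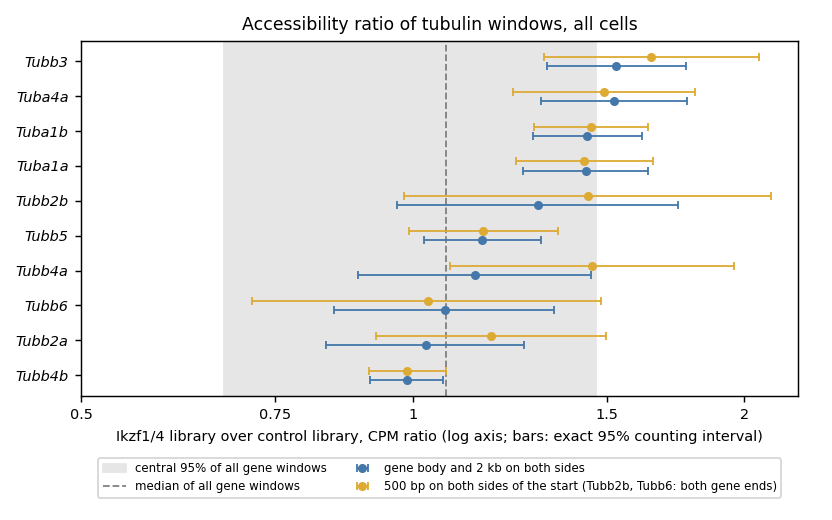
Ratio of the Ikzf1/4 to the control library (x axis, log scale) for the 10 tubulin genes over all cells, with exact 95% counting intervals. Blue marks the whole window and yellow 500 bp on both sides of the start. For Tubb2b and Tubb6, whose start was not at hand, yellow covers 500 bp on both sides of both gene ends. Tubb3, Tuba4a, Tuba1b and Tuba1a lie between 1.43 and 1.65 on both measures, and Tubb4b at 0.99.

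The libraries also differed in makeup: rod-like cells were 4.96% of control and 19.9% of Ikzf1/4 cells. Makeup and other differences between the libraries cannot be told apart with 1 library per group. With the shares of clusters set to those of the control, the ratio was 1.36 for Tubb3, 1.35 for Tuba1a and Tuba1b, and 1.19 for Tuba4a. These values have no interval, and they weight the 5 amacrine-like Ikzf1/4 cells up to the control share. Without that cluster they were 1.29 for Tubb3 and Tuba1a, 1.35 for Tuba1b and 1.20 for Tuba4a, beside 1.29 for Tubb2a and 1.52 for Tubb2b. Tubb4a at 1.15, Tubb5 at 1.05, Tubb6 at 1.04 and Tubb4b at 0.94 lay below all 4. At fixed shares the 4 members were thus not set apart from Tubb2a and Tubb2b. Without intervals, their distance from the others cannot be judged. Within classes the ratios of Tubb3 were 1.26 in Muller glia-like cells (0.74 to 2.10), 1.15 in rod-like (0.76 to 1.81) and 1.19 in cone-like cells (0.91 to 1.56). All 3 of these intervals included 1. In bipolar-like cells the ratio was 1.40 (1.09 to 1.80), beside 18.2% of gene windows with an interval above 1 in that class. Tuba1a was the other member above 1 there, at 1.28 (1.03 to 1.59), but its intervals in clusters 1, 4 and 5 each included 1. Cluster 1 held the most bipolar-like cells in the control (338) and cluster 4 in the Ikzf1/4 library (119). For Tubb3 these clusters gave 1.66 (1.15 to 2.38) for cluster 1, 1.23 (0.70 to 2.25) for cluster 4 and 1.71 (1.04 to 2.81) for cluster 5. At a finer clustering, 1 bipolar-like cluster held 1 control and 71 Ikzf1/4 cells and another held 118 and 48, so cells of the class lay in part in different clusters in each library.

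Tuba1b was the only member whose interval lay above 1 in Muller glia-like cells, at 1.52 (1.15 to 1.99), from 38.9 CPM in the control to 59.0, beside 12.5% of windows. Of the 2 clusters in that class, cluster 0 gave 1.87 (1.28 to 2.70) for Tuba1b and cluster 3 gave 1.12 (0.73 to 1.71). In cone-like cells Tuba1a was at 1.53 (1.16 to 2.03) and Tuba4a at 1.41 (1.04 to 1.91), beside 11.1% of windows. No member had an interval above 1 in rod-like cells, beside 5.88% of windows. Tubb4b was at 0.86 (0.75 to 0.98) in bipolar-like cells. The share of windows with an interval below 1 was not counted in that class, and over all cells it was 13.2%. Whether a ratio differs between classes was not tested. Of the members called lower in fibroblasts in the authors' deposited table, Tubb3 and Tuba1a thus had window ratios above 1 over all retinal cells, in other cells and with another measure. For Tubb4a the interval included 1 in the window (0.89 to 1.45). At the start alone its ratio was 1.46, with an interval above 1 (1.08 to 1.96). The share of all genes with a start interval above 1 was not counted. Median gene-start enrichment was 23.5 in control cells and 27.3 in cells of the other library. The part of this difference in the Tubb4a start ratio was not tested.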

How the data were processed

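The submitters' processing notes name Salmon and DESeq2. The authors' deposited table gives a mean normalised signal, a log2 fold change, its error, a Wald score and p-values before and after adjustment, and these were copied. Per the file headers, the deposited multiome fragments were made by cellranger-arc 2.0.1 (reference mm10), with read-pair counts per unique fragment, and each unique fragment was counted once. Transcript estimates and ATAC peak lists were not used, because no table at hand pairs the transcripts with genes, and the peak coordinates run past the end of chromosome 1 of mm10 while no mm9 annotation was at hand. The planned count tests and peak comparisons were therefore not run.

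The libraries held 52119123 control and 29358834 Ikzf1/4 fragments. Barcodes with 3000 fragments or more and a gene-start enrichment of 4 or more were kept as cells, leaving out the top percentile by fragments (above the 99th), the only step against doublets. Bins of 5 kb seen in 1% of cells or more were weighted (TF-IDF), reduced to 30 components of which 29 were kept, and clustered (20 neighbours, leidenalg 0.10.2, resolution 0.8). A cluster took the name of the marker list with most members at 1.5 times the rest or more, if at least 3, a rule set after seeing clusters. Ratios have exact conditional intervals and levels exact Poisson intervals (scipy 1.17.1). Counts were simulated for 14714 windows with Poisson error only, the error the interval assumes. There the interval lay above 1 for 98% of windows changed 1.5-fold and for 2.29% of unchanged ones. These shares say nothing about other differences between the real libraries, where 35.9% of windows lay above 1.

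Members and lists were chosen with earlier results of these data known. All 10 members were named, and of the lists of tubulin machinery at most 4 genes with the smallest deposited adjusted p (at most 6 for microtubule-binding proteins). Col1a1, Syt1, Map2, Snap25 and Rbfox3 were named after their values were seen. Alternatives covered cell minimum, scaling, window, clustering and call threshold.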

Additional observations from a re-analysis of the deposited data

How the results depend on the processing

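In fibroblasts 3 members were called, beside 30.6% of all genes with an adjusted p. With an absolute log2 fold change over 0.5 required as well, 1 was called, Tubb4a, beside 10.2% of those genes. At an adjusted p under 0.01, or with raw p-values adjusted over all genes, the count stayed 3. The shares of all genes at these last settings were not counted. Of the multiome ratios, 5 members had an interval above 1, and 4 to 7 did under the alternatives tried. At the main setting 35.9% of all gene windows did, and this share was not counted under the alternatives. Tubb3, Tuba1a, Tuba1b and Tuba4a kept ratios between 1.34 and 1.65 under the alternatives, except with cluster shares set to the control: 1.19 for Tuba4a, and, without the cluster of under 10 cells, 1.20 for Tuba4a and 1.29 for Tubb3 and Tuba1a. Other ratios that left the interval reported for that member were 1.46 for Tubb4a at its start, and 1.07 for Tubb4b and 0.81 for Tubb6 at a minimum of 10000 fragments. Tubb2a also left its interval with cluster shares set to the control, at 1.35, or 1.29 without the cluster of under 10 cells. The members more open in neuron-like than in Muller glia-like control cells numbered 6, and 4 to 7 with other clusterings or a minimum of 10000 fragments. The share of all gene windows was 49.2% at the main setting and was not counted at the others. The cluster-share settings, the division by the median window and the background of highly counted genes were chosen after seeing the data. No paired analysis was possible because the fibroblast values come from the authors' comparison and carry no replicates. The DESeq2, filter, block, leave-one-out and peak alternatives were not run. Depth limits the classes with few cells: 5 amacrine-like and 18 microglia-like cells in the Ikzf1/4 library allow no statement on single members.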
